A study of Mus musculus with 7 samples.

Results

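The fetal ovarian stroma of the mouse at E16.5, an age counted in days of embryonic development, is described here from a single-cell RNA library of whole ovaries. Its members are cells chosen by transcript counts, where 1 count is 1 unique molecular identifier (UMI), the tag that marks an original RNA molecule. A cell was taken as stromal if it held at least 1000 detected genes and at least 10 UMIs summed over Col1a1, Col1a2 and Col3a1, the chains of collagens I and III. It also had no UMI of Wnt6, a Wnt ligand of the supporting lineage, at most 1 UMI of Upk3b, a gene of the surface epithelium, none of the endothelial junction and adhesion genes Cdh5 and Pecam1, at most 1 of the pericyte gene Rgs5, and at most 2 summed over the germ cell genes Dazl and Ddx4. These gates kept 2076 of the 11042 cell barcodes of the E16.5 library, out of 52542 in the whole series. They were 25.1% of the 8284 cells with at least 1000 genes (exact 95% binomial interval 24.1 to 26.01%, counting error only) and 28.4% of the 7306 that were not germ cells.

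The stroma is the connective tissue of the ovary, made by mesenchymal cells that lie between and beneath the cords of germ cells and pregranulosa cells. Its fibroblast-like cells secrete fibrillar collagens, microfibrils and proteoglycans, carry receptors for platelet-derived growth factor and hedgehog signals made by neighbouring cells, and after birth give rise to the theca layers around follicles. Pregranulosa cells, the supporting cells that enclose oocytes, express Foxl2 and Kitl in place of the mesenchymal programme.

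The ovaries came from wild-type C57BL/6J mice without treatment, and were dissociated with trypsin, for 40 min at E16.5, before capture on the 10x Genomics Chromium system. By the methods of the study several ovaries were combined at each age, and 1 library was made per age, for 5 embryonic ages between E11.5 and E18.5 and for postnatal days P1 and P5, so no difference has a replicate check, no p-value is given, and intervals cover counting error only. The E16.5 library held 125415948 UMIs, of which 22894690 fell in stromal cells, with a median of 10476 UMIs and 3385 genes per stromal cell. The sex of the cells went with an ovary: a UMI of a Y-linked gene was found in 3 of 2076 stromal cells (0.145%), and Xist, the RNA of the inactive X chromosome, in 99.2%.

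The E16.5 library stood apart from the other 6. Its cell barcodes overlapped those of any other library by 0 to 3, whereas pairs among the other libraries shared 22 to 136. None of its 11042 barcodes began with AAACCT, a start found in 7 to 25 barcodes of each other library, and 11 began with AAACCC, a start found in none of the others. The labels give the same capture chemistry for all 7. Comparisons within the E16.5 library are not touched by this, but between ages the library and the age cannot be told apart.

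The upstream stretches of Col1a2, Col3a1 and Ptn are shown, the genes of the gate or of the markers with a single RefSeq start among the sequences used. Nfix had 4 starts and is not shown. They are the 120 bases before the RefSeq start (build GRCm38.p6), in the direction of transcription, with capitals for CCAAT, the box bound by the nuclear factor Y complex, and for TATAAA, the TATA box letters, each searched on both strands. The stretch of Col1a2 lies on the plus strand at chr6:4505498-4505617. Its RefSeq start was 804 bases downstream of the outermost GENCODE start, so the whole stretch lies inside the gene as GENCODE draws it. That of Col3a1 lies on the plus strand at chr1:45311418-45311537 with the same start in both annotations. That of Ptn lies on the minus strand at chr6:36810180-36810299. Its RefSeq start was 41 bases downstream of the GENCODE start, which falls inside the stretch.
Col1a2: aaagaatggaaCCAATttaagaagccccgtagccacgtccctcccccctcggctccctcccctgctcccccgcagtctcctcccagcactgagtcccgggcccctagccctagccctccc
Col3a1: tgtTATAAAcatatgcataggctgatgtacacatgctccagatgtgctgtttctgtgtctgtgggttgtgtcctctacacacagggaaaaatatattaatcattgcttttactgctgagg
Ptn: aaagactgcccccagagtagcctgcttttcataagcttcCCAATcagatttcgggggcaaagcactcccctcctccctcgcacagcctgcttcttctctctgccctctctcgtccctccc
CCAAT occurred once each before Col1a2 and Ptn, starting 109 and 81 bases before the start, and TATAAA once before Col3a1, starting 117 bases before it. Of all 32851 windows of this length, 21.3% held CCAAT and 6.34% held TATAAA on either strand. These matches are letters in a window and were not tied to any reading of the counts.

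The collagen gate lay at the lower end of a broad, shallow trough and not at a sharp gap. Among cells that met every other gate, 298 had a collagen sum of 0. Counted per UMI of bin width, there were 13.5 cells at 8 or 9 UMIs, 15.3 at 10 to 12, 11.2 at 20 to 25 and 24.9 at 40 to 49. Levels are given as CPM, the UMIs of a gene over a group of cells per 1000000 UMIs of that group. In the stromal cells the median collagen sum was 66 UMIs, with quartiles at 44 and 93 and a range of 10 to 421. The 69 cells just inside the threshold, with 10 to 14 collagen UMIs, carried 605 CPM of Ptn and 592 CPM of Kitl. The 109 cells just outside it, with 5 to 9, carried 354 and 591 CPM. Over all 2076 cells the same genes stood at 2109 and 100.9 CPM, so the cells near the gate held less of the stromal gene and more of the pregranulosa gene than the bulk of the stroma.

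**Figure D1:**
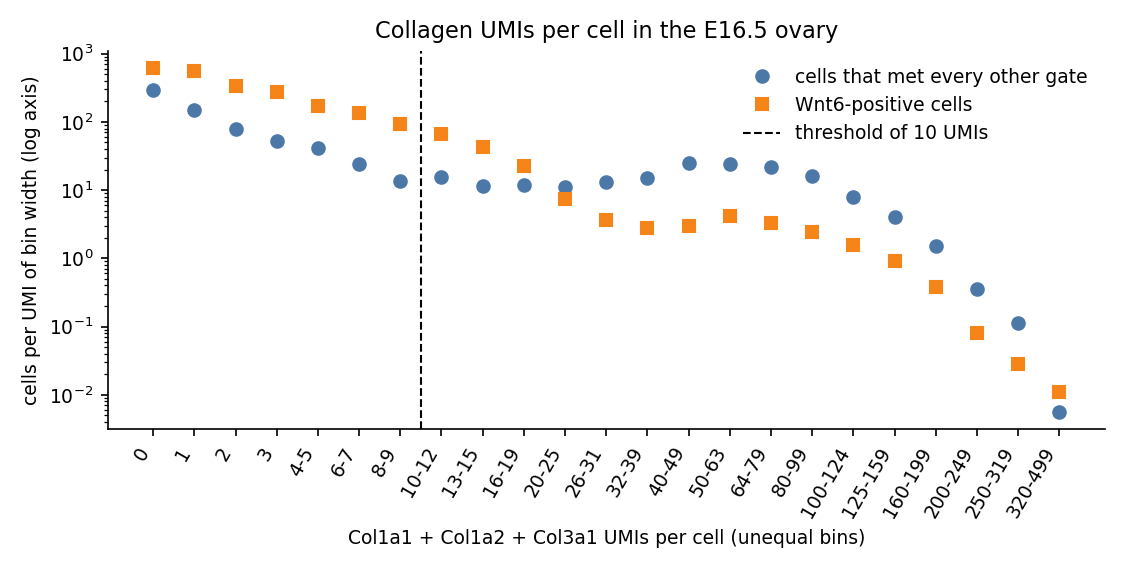
Cells of the E16.5 library by their summed Col1a1, Col1a2 and Col3a1 UMIs (horizontal axis, unequal bins; vertical axis, cells per UMI of bin width, log axis), for cells that met every other gate (circles) and for Wnt6-positive cells (squares). The gate at 10 UMIs (dashed line) lies at the lower end of a shallow trough of the circles, which fall to 11.2 cells per UMI at 20 to 25 and rise to 24.9 at 40 to 49, while most Wnt6-positive cells lie below the gate.

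Within this library, the other somatic cells were 5230 cells with at least 1000 genes, sorted by order of test. They were 210 endothelial cells (at least 2 UMIs of Cdh5 and Pecam1), 106 immune and 361 erythroid cells (at least 3 UMIs of leukocyte or of red cell genes), 154 mural cells (Rgs5 at least 2), 546 epithelial cells (Upk3b at least 2), 3382 Wnt6-positive cells, 423 cells poor in collagen, and a rest of 48. The Wnt6-positive cells, where Foxl2 stood at 265 CPM and Kitl at 1141 CPM, gave most of the UMIs on that side. Col1a1 stood at 1930.2 CPM in the stroma, 1738 CPM in the rest and 982 CPM in the mural cells, so the ratios to all other somatic cells are drawn toward 1 by them.

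The cells carried the markers of their label. Col1a1 (ENSMUSG00000001506, chr11:94936224-94953042, plus strand, mm10 with GENCODE M21) and Col3a1 (ENSMUSG00000026043, chr1:45311538-45349706, plus strand), the fibrillar collagens that the gate used, stood at 1930.2 and 2900.1 CPM. The markers outside the gate were Nfix (ENSMUSG00000001911, chr8:84699876-84800344, minus strand), a nuclear factor I transcription factor, Maf (ENSMUSG00000055435, chr8:115682942-115707794, minus strand), a basic leucine zipper factor of gonadal interstitial cells, and Ptn (ENSMUSG00000029838, chr6:36714929-36810220, minus strand), the heparin-binding growth factor pleiotrophin. Nfix stood at 372 CPM (exact 95% Poisson interval 364 to 379.8) in the stroma and 55.3 CPM (53.5 to 57.0) in the other somatic cells, 6.73-fold higher (6.48 to 6.99). Maf stood at 511 CPM (502 to 521) against 149.9 CPM (147 to 153), 3.41-fold higher (3.32 to 3.50). Ptn stood at 2109 CPM (2090.0 to 2128) against 248 CPM (244 to 251), 8.52-fold higher (8.37 to 8.67).

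The 3 markers differed in how far they set the stroma apart from single classes. Ptn was highest in the stroma, followed by the rest (1769 CPM) and the mural cells (1264 CPM), and ran from 40.3 CPM in germ cells to 290.1 CPM in the collagen-poor cells in the other 7 classes. Nfix was also highest in the stroma, with 334 CPM in the rest, 229.7 CPM in mural cells, 43.8 CPM in Wnt6-positive cells and 25.1 CPM in germ cells. Maf was the least particular of them, at 448 CPM in immune cells and 569 CPM in the rest against 511 CPM in the stroma.

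Per cell, all of Nfix, Maf and Ptn had a UMI in 86.5% of stromal cells, 11.9% of Wnt6-positive cells and 4.91% of germ cells, whose median depths were 10476, 12698.5 and 25714.5 UMIs. Germ cells, which should lack the stromal genes, were taken as the background from free RNA in the droplets. When each cell was thinned to 2000 UMIs, Ptn was detected in 91.3% of 2069 stromal cells, 17.7% of 3353 Wnt6-positive cells and 6.30% of 968 germ cells. At that depth Nfix was detected in 51.7, 7.13 and 4.75%, and Maf in 59.0, 21.4 and 1.76%. The stromal gene levels were broad across cells: the middle of the Ptn distribution ran from 11.7 to 28.6 UMIs per 10000 around a median of 18.6, and Lum, a small proteoglycan of collagen fibrils, had a UMI in 52.5% of the cells against 7.26% of germ cells.

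**Figure D2:**
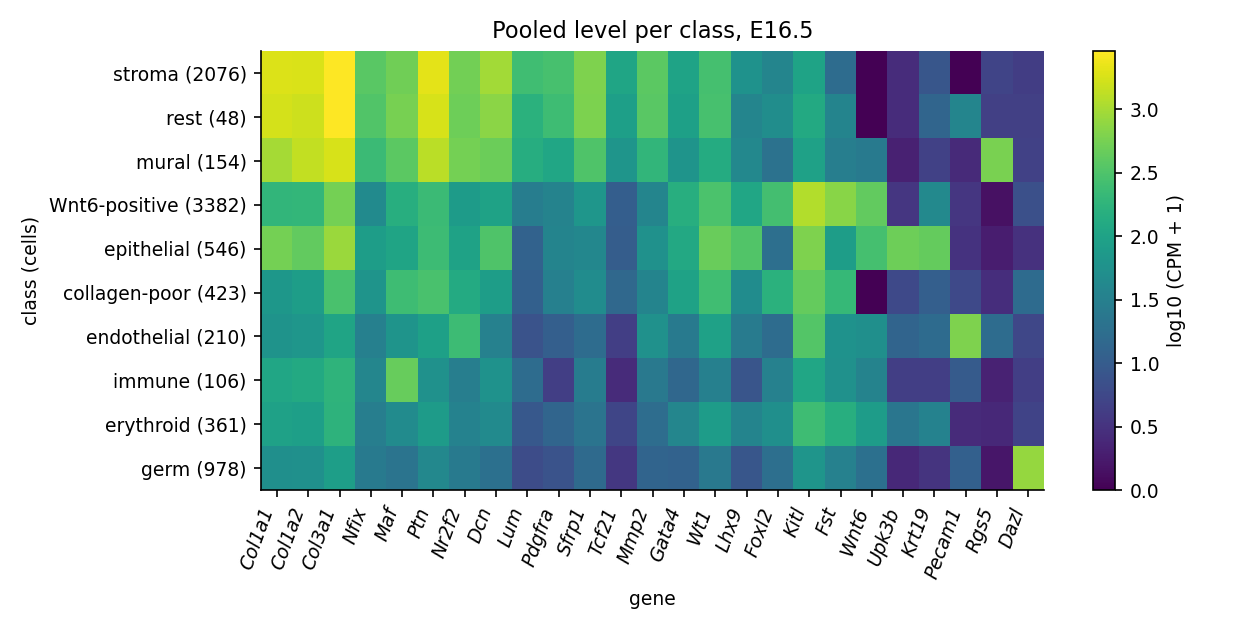
Pooled level of 25 genes (columns) in the stroma and in 9 other classes of the E16.5 library (rows, with cell numbers), as log10 of CPM plus 1. The stroma, the rest and the mural cells share high collagen and Ptn, Wnt6-positive cells are high in Kitl and Foxl2, and Gata4 and Wt1 are shared by the stroma, the Wnt6-positive and the epithelial cells.

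Of 9118 genes with a mean level of at least 10 CPM over both sides, 510 were at least 2-fold higher in the stroma (5.59%) and 738 at least 2-fold lower (8.09%), with 5 CPM added to each level for the call. The median log2 ratio of all tested genes was -0.08. The 15 highest ratios, ranked with 5 CPM added to each level, included secreted and matrix proteins. By plain ratio Crabp1, given below, would stand above them. Sfrp1, a secreted Wnt antagonist, stood at 627 against 64.3 CPM, 9.75-fold higher (9.43 to 10.1). Mfap4, a protein of elastic microfibrils, stood at 572 against 60.3 CPM. Lum stood at 249 against 26.2 CPM, and Col6a3, a chain of collagen VI, at 295 against 32.4 CPM. Mmp2, a gelatinase that cuts collagen, stood at 383 against 45.6 CPM, and Sulf2, which removes sulfate groups from heparan sulfate, at 374 against 45.7 CPM. The class also held Itih5, a hyaluronan-binding protein (251 against 30.3 CPM), Islr, a secreted protein of mesenchymal stem-like cells (203 against 24.3 CPM), and Frem1, a protein of basement membranes (117 against 12.49 CPM).

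Receptors, regulators and adhesion molecules made up the others of the 15. Pdgfra, the alpha receptor for platelet-derived growth factor, stood at 284 against 34.3 CPM, 8.30-fold higher (7.92 to 8.69). Tcf21, a helix-loop-helix factor of visceral and gonadal mesenchyme, stood at 107 against 11.1 CPM, 9.72-fold higher (8.97 to 10.6). Dnm3os, a noncoding host transcript of microRNAs on the opposite strand of Dnm3, stood at 181 against 18.9 CPM. Clmp, an adhesion protein of cell junctions, and Syt1, a calcium sensor of vesicle release, stood at 171 against 20.3 CPM and 116 against 12.4 CPM. With Ptn these complete the 15, and each had a higher pooled level in the stroma than in the mural class, although Col6a3 was nearly level there at 287 CPM.

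The 10 lowest ratios, also ranked with 5 CPM added, belonged to genes that were high in Wnt6-positive cells and to a few genes of white blood cells. By plain ratio Lgr5 and Krt18, given below, were lower than Gstm6 of these. Fst, the activin-binding protein follistatin, stood at 15.8 against 479 CPM, 30.4-fold lower in the stroma. Gng13, a G-protein gamma subunit, stood at 6.99 against 327 CPM, Aldh1a1, a retinaldehyde dehydrogenase, at 10.3 against 320.2 CPM, and Irx3, a homeobox factor of pregranulosa cells, at 4.32 against 193 CPM. The cystatins Cst12 and Cst8 stood at 1.14 against 104 CPM and 2.40 against 120.4 CPM, and Gstm6, a glutathione transferase, at 13.9 against 286 CPM. S100a9 and S100a8, the calprotectin subunits of neutrophils, and Stfa1, a stefin, stood at 2.62, 1.62 and 0.611 CPM in the stroma. In the 106 immune cells S100a9 stood at 13957 CPM, while Wnt6-positive cells held 2.67 CPM.

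**Figure D3:**
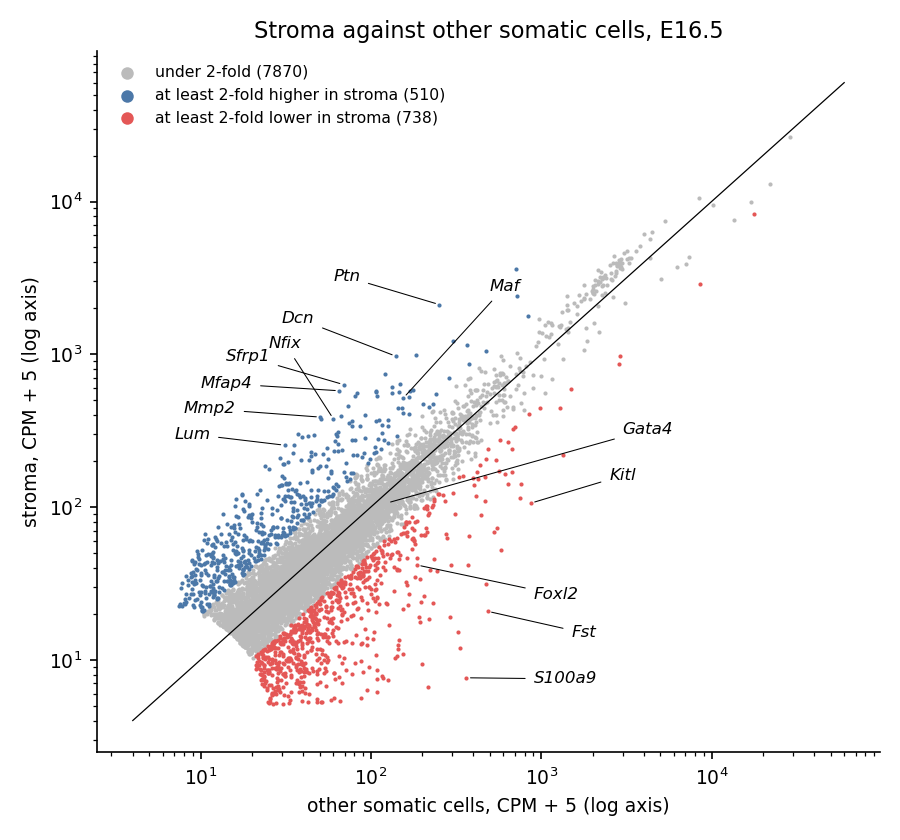
Level of each of 9118 genes in the stroma (vertical) against the other somatic cells (horizontal), both as CPM plus 5 on log axes, with the line of equal levels. The 510 genes in blue were at least 2-fold higher in the stroma and the 738 in red at least 2-fold lower; Ptn, Sfrp1 and Lum lie far above the line, Fst and S100a9 far below it, and Gata4 close to it.

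Collagens beyond the gate were mostly higher in the stroma than in the pooled other somatic cells. Of 16 tested of 19, 11 were at least 2-fold higher and 1 lower, with a median log2 ratio of 1.52. Against the mean of the other classes 11 were higher and 3 lower. Summed over the 19, mural cells held 4387 CPM, endothelial cells 3087 CPM, the rest 2762 CPM and the stroma 2745 CPM. The chains of collagen VI, which forms beaded filaments, stood at 556 against 127 CPM for Col6a1 and 559 against 102 CPM for Col6a2. Those of collagen V, which seeds fibrils of collagen I, stood at 239 against 50.5 CPM for Col5a1 and 333 against 81.1 CPM for Col5a2. The basement membrane chains did not follow: Col4a1 stood at 197 against 248 CPM and Col4a2 at 132 against 159 CPM, under 2-fold apart, and Col18a1, also of basement membranes, was 5.63-fold lower at 23.3 against 131 CPM. Col12a1, a fibril-associated collagen, stood at 85.9 against 64.1 CPM.

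Other matrix proteins and the enzymes that process collagen leaned the same way. Among matrix proteins 20 of 27 tested were higher and 1 lower, with a median log2 ratio of 1.99. The proteoglycans Dcn (decorin) and Bgn (biglycan), which bind collagen fibrils, stood at 965 against 135 CPM and 527 against 75.9 CPM. Eln, the core of elastic fibres, stood at 267 against 56.8 CPM, Mfap2, a microfibril protein, at 631 against 144 CPM, and Sparc, a collagen-binding protein, at 1769.8 against 836 CPM. Thbs2, a thrombospondin, was 2.72-fold lower, a call lost among cells of at most 10% mitochondrial UMIs, with 20 CPM added and against the mean of the other classes, and 6 genes were under 2-fold apart: the laminin chains Lama4, Lamb1 and Lamc1, the fibulin Fbln2, Thbs1, and the fibrillin Fbn2, which stood at 246 against 252 CPM. Of 25 tested genes that fold, cross-link or cut collagen, 10 were higher and 0 lower (median log2 ratio 0.94). Among them Loxl1, a cross-linking oxidase, stood at 187 against 25.4 CPM, Mmp14, a membrane metalloproteinase, at 338 against 111 CPM, and P4hb, a subunit of prolyl hydroxylase, at 289 against 137 CPM. The collagen chaperone Serpinh1 stood at 611 against 312 CPM, just under the 2-fold line, the isomerase Ppib at 599 against 507 CPM, and Timp3, an inhibitor of metalloproteinases, at 216 against 304 CPM. Summed over this list of collagen-processing genes, mural cells held 4195 CPM and the stroma 4106 CPM. Against the mean of the other classes 8 of the 25 were higher and 0 lower.

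Of 21 tested mesenchymal factors 15 were higher in the stroma and 1 lower (median log2 ratio 1.30). They were not particular to the stroma: the list summed to 5674 CPM in mural cells, 4826 CPM in the stroma and 4749 CPM in the rest. Against the mean of the other classes 11 of 21 were higher and 2 lower. Among cells of at most 10% mitochondrial UMIs 12 of 21 were higher and 1 lower. Nr2f2, the nuclear receptor COUP-TFII of interstitial cells, stood at 526 against 104 CPM, and its paralog Nr2f1 at 22.5 against 9.57 CPM. The nuclear factor I genes Nfia and Nfib stood at 404 against 162 CPM and 698 against 281 CPM, and the zinc finger repressors Zeb1 and Zeb2 at 257 against 121 CPM and 437 against 139 CPM. Tcf4, an E protein, stood at 429 against 364 CPM, and Klf4, a zinc finger factor of the early response genes, was 5.07-fold lower at 13.4 against 67.7 CPM.

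Of 7 tested factors that shape the early gonad 1 was higher, 2 were lower and 4 were under 2-fold apart (median log2 ratio -0.22). Gata4, needed to form the genital ridge, stood at 101.0 against 119 CPM, Gata6 at 245 against 227 CPM, and Wt1, the Wilms tumour factor, at 278 against 284 CPM, all under 2-fold apart. A Gata4 UMI was found in 59.4% of stromal cells against 80.8% of Wnt6-positive and 14.3% of germ cells, and in 18.0, 25.4 and 1.45% at 2000 UMIs a cell. Zfpm2, the partner protein of Gata4, was 2.76-fold higher at 216 against 78.2 CPM. Lhx9, a LIM homeobox factor, and Nr5a1, the steroidogenic factor, were 2.16-fold and 2.83-fold lower, and neither passed 2-fold among cells of at most 10% mitochondrial UMIs, with 20 CPM added, or against the mean of the other classes. Of 39 Hox genes, which mark position along the body axis, 10 were tested, 3 were higher in the stroma and 0 lower. These were Hoxd9 at 66.9 against 29.9 CPM, Hoxd10 at 23.1 against 6.45 CPM and Hoxd11 at 18.3 against 3.06 CPM.

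Growth factor genes were spread over several families. In the pleiotrophin and midkine family 3 of 8 tested genes were higher and 1 lower: besides Ptn, the ligand Mdk (midkine) stood at 1211 against 299.7 CPM and Lrp1, an endocytic receptor for midkine, at 268 against 114 CPM, while Sdc4, a syndecan, was 7.86-fold lower. For platelet-derived growth factor, both receptors were higher in the stroma, Pdgfra as given and Pdgfrb at 113 against 26.4 CPM, and the ligand Pdgfa was 4.18-fold lower at 12.7 against 53.0 CPM. Against the mean of the other classes 1 of 5 tested genes of this family was higher and 2 lower, and Pdgfrb was no longer called higher. Among the insulin-like growth factor genes, Igf1, the ligand, stood at 302 against 111 CPM, and its binding proteins Igfbp5 and Igfbp4 at 3627 against 702 CPM and 404 against 149 CPM, whereas Igfbp2 was 6.12-fold lower. The receptors Igf1r and Igf2r stood at 175 against 107 CPM and 175 against 98.1 CPM.

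Wnt genes lay in both directions. Of 15 tested, 7 were higher and 3 lower. With 20 CPM added 4 were higher and 2 lower, and Axin2 was then not past 2-fold. Against the mean of the other classes 5 were higher and 2 lower. Among cells of at most 10% mitochondrial UMIs 6 of 16 were higher and 2 lower. Wnt5a, a ligand of the noncanonical pathway, stood at 292 against 41.1 CPM, its receptor Ror2 at 43.4 against 5.82 CPM, and Fzd2, a frizzled receptor, at 99.1 against 33.9 CPM. Lower were Axin2, a target and brake of beta-catenin (39.7 against 98.1 CPM), Rspo1, the R-spondin of ovary determination (18.4 against 89.5 CPM), and Lgr5, an R-spondin receptor (2.45 against 103 CPM). Wnt4, the ligand that supports ovarian fate, was held in common at 352 against 363 CPM.

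Hedgehog genes were measured mainly on the receiving side. Of 7 tested genes 3 were higher and 0 lower: Gas1, a co-receptor, at 522 against 162 CPM, and the factors Gli2 and Gli3 at 22.0 against 4.004 CPM and 63.0 against 25.8 CPM. With 20 CPM added 1 of 7, Gas1, was higher and 0 lower. Ptch1, the hedgehog receptor and a target of the pathway, stood at 24.98 against 47.6 CPM, 1.91-fold lower and short of the 2-fold call. Against Wnt6-positive cells, where it stood at 58.4 CPM, it was past the call on the lower side. Gli1, a further gene of this list, was too low to be tested. A Gli1 UMI was found in 12.6% of stromal cells, 1.45% of Wnt6-positive cells and 2.25% of germ cells. For Ptch1 these shares were 20.7, 43.3 and 35.4%, so the genes lay in opposite directions. Whether the stroma responded to hedgehog signals was not tested. Smo, the signal transducer, stood at 144 against 103 CPM, and Boc and Cdon, further co-receptors, at 67.0 against 49.8 CPM and 58.9 against 38.6 CPM. The ligands Dhh, Ihh and Shh were each under 1 CPM in the stroma and in the other somatic cells.

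The imprinted genes, expressed from the copy of a single parent, had 4 of 14 tested higher in the stroma and 2 lower. Dlk1, a delta-like protein, stood at 453 against 68.6 CPM, Meg3, a noncoding RNA of the same domain, at 2406 against 715 CPM, Grb10, an adaptor that restrains insulin receptors, at 368 against 107 CPM, and Plagl1, a zinc finger factor, at 200.2 against 51.2 CPM. Cdkn1c, an inhibitor of the cell cycle, was 2.92-fold lower at 440.4 against 1286 CPM, although no gene of the list was lower against the mean of the other classes, and Peg3 and H19 stood at 1153.5 against 1249.6 CPM and 1354 against 1129 CPM. In the BMP and TGF-beta families 4 of 11 tested were higher, among them the ligand Tgfb2 at 289 against 58.6 CPM and Inhba, the activin A subunit, at 32.1 against 4.99 CPM. There 4 were lower, among them Id1, a target of BMP signals, at 154 against 340.0 CPM, while its relative Id2 was higher at 568 against 166 CPM.

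Among retinoid genes Crabp1, which binds retinoic acid inside cells, stood at 61.5 against 5.69 CPM, and the synthetic enzyme Aldh1a2 was 4.82-fold lower at 20.4 against 98.1 CPM. Among guidance and chemokine genes 4 of 10 tested were higher and 1, the semaphorin Sema3c, was lower at 6.29 against 29.9 CPM. Higher were Slit2, a repellent ligand, at 362 against 72.4 CPM, its receptor Robo2 at 44.9 against 11.48 CPM, the semaphorin Sema3d at 63.3 against 11.01 CPM and the chemokine Cxcl12 at 81.1 against 11.7 CPM. Among hormone receptors Ghr, the growth hormone receptor, stood at 76.8 against 35.0 CPM. Esr1, an oestrogen receptor, stood at 65.6 against 36.1 CPM and Nr3c1, the glucocorticoid receptor, at 86.0 against 47.2 CPM. The steroid-producing genes were close to absent: Star, the cholesterol transporter, stood at 3.67 against 23.1 CPM, Hsd3b1, a hydroxysteroid dehydrogenase, at 2.05 against 62.9 CPM, and the theca enzymes Cyp11a1 and Cyp17a1 at 0.218 and 0.0437 CPM in the stroma. Cyp19a1, Insl3 and Hsd17b3 had a UMI in 0 of 2076 stromal cells, which allows a share of up to 0.145% of cells with a UMI of each and sets no limit on cells that express them below detection.

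Markers of other cell types were low but not absent. Of 14 pregranulosa genes 13 were tested and 12 were lower in the stroma, with a summed level of 604 against 3599.8 CPM. That sum includes Wnt6, which the gate sets to 0 in the stroma and which stood at 318 CPM in the other somatic cells. The exception was Wnt4, at 352 against 363 CPM, most of the stromal sum. Foxl2 stood at 36.7 against 181 CPM, Kitl, the ligand of the oocyte receptor Kit, at 100.9 against 862 CPM, Runx1 at 29.7 against 177 CPM, and Amhr2, the receptor for anti-Mullerian hormone, at 13.6 against 216 CPM. Surface epithelial keratins Krt18 and Krt19 stood at 5.85 against 149.9 CPM and 7.43 against 90.4 CPM. Of the endothelial genes Cdh5 and Pecam1 were at 0 by the gate, Cldn5, a tight junction gene, stood at 0.480 CPM and Flt1, a receptor for vascular endothelial growth factor, at 0.306 CPM, while Kdr, its sister receptor, stood at 58.5 against 64.9 CPM. The germ cell list had 0 of 3 tested genes past 2-fold, the immune list 6 of 6 lower, and Epcam, the 1 tested gene of the tubule list, stood at 1.70 against 49.7 CPM. All 8 tested erythroid genes were lower than in the other somatic cells, whose reference holds the red cells, but 3 of 8 were lower with at least 2000 genes per cell and 1 of 5 without the cells over 1% haemoglobin. Against Wnt6-positive cells alone 4 of 5 tested were higher in the stroma. In the comparison with Wnt6-positive cells 7.93% of all tested genes were higher and 9.11% lower.

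The mural and contractile genes overlapped with the stroma. Of 8 mural genes 5 were tested and 2 were higher, Pdgfrb as given and Notch3, a Notch receptor of vessel walls, at 43.1 against 12.8 CPM. Against Wnt6-positive cells alone, or without the mural class and the rest in the reference, all 5 tested were higher. Against the mean of the other classes 0 of 6 tested were higher and 1 lower, so neither call held there. Among cells of at most 10% mitochondrial UMIs 1 of 6 was higher and 1 lower, and with 20 CPM added 1 of 5 was higher and 0 lower. The smooth muscle list had 5 of 6 tested higher, with Acta2, smooth muscle actin, at 285 against 37.6 CPM, Tagln at 139 against 33.6 CPM, Tpm2 at 149.7 against 25.8 CPM, and Myh11, smooth muscle myosin, at 39.3 against 16.05 CPM. Myl9, a myosin light chain, stood at 221 against 402 CPM, and Cnn1, Actg2 and Lmod1 were too low to be tested. With 20 CPM added, or among cells of at most 10% mitochondrial UMIs, 3 of 6 smooth muscle genes were higher and 0 lower. Myh11 was not past 2-fold with 20 CPM added. The neural crest and glial genes Sox10 and Foxd3 had no UMI in the stroma.

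Blood RNA and cell state moved with the comparison. Haemoglobin genes summed to 5276 CPM in the stroma, but the median cell held 454 CPM, close to the 427 CPM of Wnt6-positive and the 431 CPM of germ cells. In 31 stromal cells (1.49%) haemoglobin took more than 1% of UMIs, and without them the pooled level was 505 CPM. Mitochondrial UMIs took a median of 5.44% in the stroma and 11.9% in Wnt6-positive cells, and with only cells of at most 10% mitochondrial UMIs on both sides 376 genes were higher and 585 lower. With haemoglobin, mitochondrial and ribosomal protein genes left out of the totals, 615 genes were higher and 906 lower. Early response genes of dissociation had 0 of 10 higher and 5 lower, with Fos at 327 against 696 CPM, Atf3 at 16.3 against 149 CPM and Egr1 at 740.3 against 708 CPM. Of 16 cell cycle genes 1 was higher and 4 lower. The higher gene was Cenpf, a call lost with 20 CPM added and against the mean of the other classes. The lower ones were Ccnd1 and the cell cycle inhibitors Cdkn1a, Cdkn1b and Cdkn1c, with Cdkn1b at 67.8 against 548 CPM. Not past 2-fold were Top2a, an S and G2 phase gene, at 391 against 194 CPM, and Mki67, a proliferation gene, at 307 against 248 CPM. Set against Wnt6-positive cells alone, 10 of 16 cell cycle genes were higher and 3 lower. Without the cells over 1% haemoglobin, a setting chosen after the data were seen, 7 were higher than in all other somatic cells and 4 lower (5.86 and 8.14% of all tested genes), and with at least 2000 genes per cell 4 were higher and 4 lower.

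The stromal cells were not alike. Clustering of the 2076 cells on 10 principal components, with cell cycle genes left out of the variable genes, gave 8 sub-clusters of 62 to 587 cells. The genes that led the sub-clusters come from the same cells and are a description, and each level is set against the pooled rest of the stroma. The largest, sub-cluster 1, had 587 cells (28.3%, exact 95% interval 26.3 to 30.3%). Its highest folds were haemoglobin genes, which rested on few cells, since 16 of its cells held more than 1% haemoglobin and its median cell held 449 CPM. Its other leading genes included Rgs2, a regulator of G-protein signals, at 456 against 246 CPM, and Gpx1, a glutathione peroxidase, at 199 against 110.2 CPM. They also included Car2 and Slc4a1 of the erythroid list, at 50.2 against 6.80 CPM and 28.2 against 2.31 CPM. Whether Rgs2 and Gpx1 rested on the same 16 cells was not tested. Collagen was modest there, with a median sum of 56 UMIs.

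Sub-cluster 2, with 418 cells (20.1%), had the highest median collagen sum at 85 UMIs. It was led by Pdlim3, an actin-associated protein, at 159 against 18.53 CPM, Lum at 596 against 177 CPM, Adamts5, a protease of proteoglycans, at 146 against 23.7 CPM, and Meis2, a homeobox factor, at 578 against 189 CPM. Ptn reached 3897 CPM there, against 1745 CPM in sub-cluster 1 and 1727 CPM in sub-cluster 3. Sub-cluster 3, with 274 cells (13.2%), was led by Cd24a, a surface glycoprotein, at 378 against 146 CPM, Itih5 at 512 against 214 CPM, Eln at 523 against 231 CPM, Igfbp7 at 248 against 100.8 CPM and Sfrp1 at 1091 against 562 CPM. Foxl2 was low in both, at 4.61 CPM in sub-cluster 2 and 14.6 CPM in sub-cluster 3, against 49.4 CPM in sub-cluster 1.

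Sub-clusters 4 and 6 were set apart by genes of the cell cycle, with 244 (11.8%) and 152 cells (7.32%). Sub-cluster 4 was led by genes of DNA synthesis, among them Pclaf, a partner of the replication clamp, at 1005 against 64.7 CPM, and the histone gene Hist1h1b at 1044 against 93.1 CPM. Sub-cluster 6 was led by genes of mitosis, among them the centromere gene Cenpf at 1843 against 76.0 CPM and Ube2c, a ubiquitin enzyme of mitotic exit, at 892 against 46.1 CPM. Mki67 was detected, at 2000 UMIs a cell, in 63.4% of cells of sub-cluster 4 and 92.7% of sub-cluster 6, and in 2.56% of sub-cluster 3. Their stromal levels lay near those of sub-cluster 1, with Ptn at 1919 and 1751 CPM.

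Sub-cluster 5 was mural-like by the marker list. Its 199 cells (9.59%) had all 8 mural markers at least 2-fold above the rest of the stroma, although the gate had allowed at most 1 UMI of Rgs5. Cxcl12 stood at 585 against 39.2 CPM, Ebf1, an early B cell factor of pericytes and fat precursors, at 268 against 5.54 CPM, Pdgfrb at 469 against 83.9 CPM, and Kcnj8, a potassium channel of pericytes, at 172 against 7.76 CPM. Col4a1, a basement membrane chain, stood at 869 against 141 CPM, and Prlr, the prolactin receptor, at 184 against 6.77 CPM. Gata4 stood at 22.7 CPM there against 120.2 CPM in sub-cluster 1 and 84.6 CPM in sub-cluster 2. A Gata4 UMI was found in 16.1% of its cells (median of 8508 UMIs a cell) against 14.3% of germ cells (median of 25714.5 UMIs). At 2000 UMIs a cell the Gata4 shares were 4.04% there, 1.45% in germ cells and 23.9% in sub-cluster 1.

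Sub-cluster 7 was pregranulosa-like. Its 140 cells (6.74%) had the lowest median collagen sum, 21.5 UMIs, and 10 of 14 pregranulosa markers at least 2-fold above the rest of the stroma. It was led by Kctd14 at 1285 against 129 CPM, the glutathione transferase Gstm2 at 725 against 60.8 CPM, the laminin receptor chain Itga6 at 405 against 18.7 CPM and the chaperone Clu at 339.8 against 13.01 CPM. Kitl stood at 467 CPM and Foxl2 at 167 CPM, below the 1141 and 265 CPM of Wnt6-positive cells. Ptn was at its lowest of the 8 sub-clusters there, 771 CPM, while Maf held 594 CPM. The number of cells given this name depended on the clustering: 112 with 20 principal components and 39 at resolution 1.0. The mural-like cells numbered 193 and 203 under the same settings.

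Sub-cluster 8, with 62 cells (2.99%), was left unnamed because 8 of 9 epithelial and 10 of 10 immune markers were at least 2-fold above the rest of the stroma together. It was led by Angptl7, a secreted angiopoietin-like protein, at 435 against 14.1 CPM, the keratin Krt19 at 208 against 1.48 CPM and Atf3 at 236 against 9.85 CPM, and kept Col1a1 at 2449 CPM and Ptn at 1609.8 CPM. Without sub-clusters 5 and 7, a setting chosen after the clusters were seen, 538 genes were at least 2-fold higher in the stroma than in the other somatic cells and 789 lower.

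**Figure D4:**
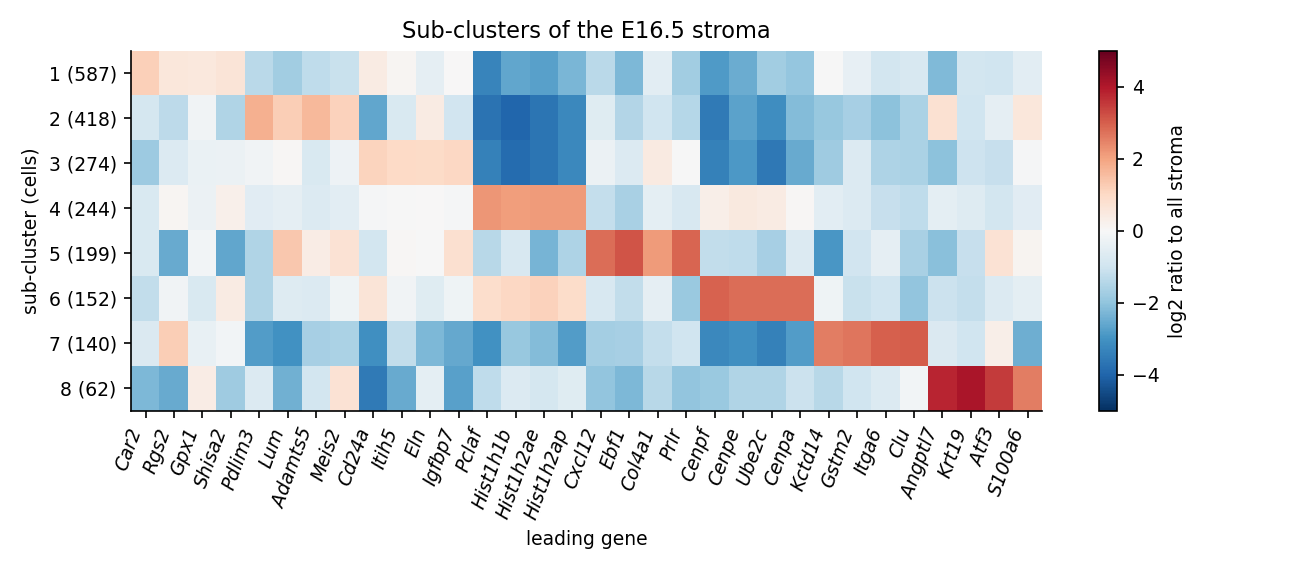
Leading genes (columns, 4 of those reported per sub-cluster, without haemoglobin genes) in the 8 sub-clusters of the E16.5 stroma (rows, with cell numbers), as log2 ratio to the pooled stroma with 5 CPM added. Each sub-cluster is high in its own genes by construction, and the strongest contrasts are the cell cycle genes of 4 and 6 and the genes of 5, 7 and 8.

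Cells that met the same gates at other ages place the E16.5 stroma in time, within the limit that its library stood apart. There were 1198 such cells at E11.5, 597 a day later, 633 at E14.5, 745 in the E18.5 library, 1628 on P1 and 2217 by P5. Their median depth was 5635 UMIs at E14.5 and 6408 UMIs at E18.5 against 10476 UMIs at E16.5, and dissociation lasted as long at E14.5 as at E16.5 and longer at E18.5. At E11.5 a Y-linked UMI was found in 33.5% of these cells and at E12.5 in 4.52%. From E14.5 to E16.5, 1346 of 8369 tested genes were at least 2-fold higher (16.1%) and 316 lower (3.78%), and from E16.5 to E18.5 214 of 8542 were higher (2.51%) and 749 lower (8.77%). These comparisons share the E16.5 library. Between E14.5 and E18.5, compared directly and chosen after the barcodes were seen, 230 of 7952 were higher (2.89%) and 67 lower (0.843%). The Wnt6-positive cells of the same libraries gave 13.2% higher and 3.26% lower at E16.5 against E14.5, and 3.47% higher and 5.89% lower at E18.5 against E16.5.

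The genes that led these steps were largely those that set E16.5 apart from both neighbours. Gm42418, a gene model that overlaps ribosomal RNA, stood at 393, 9423 and 578 CPM at E14.5, E16.5 and E18.5, and AY036118, another transcript of that kind, at 18.1, 1462 and 28.3 CPM. Lars2, the mitochondrial leucyl-tRNA synthetase, stood at 15.8, 196 and 41.6 CPM, and Hnrnpa0, an RNA-binding protein, at 87.4, 629 and 83.7 CPM. In the opposite direction, the early response genes Klf4, Cyr61 and Maff were lower at E16.5 than at either neighbour, with Cyr61, a matricellular protein, at 818, 109 and 937 CPM. Dusp6 and Spry2, feedback inhibitors of growth factor signals, stood at 71.3 and 106 CPM at E14.5, 7.12 and 11.49 CPM at E16.5, and 25.5 and 70.3 CPM at E18.5.

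The ratio of stroma to Wnt6-positive cells within each library sets the 2 cell types side by side under the same library conditions. By this ratio, with 5 CPM added, 7.93% of 9063 tested genes were at least 2-fold higher in the stroma at E16.5 and 9.11% lower, against 7.42 and 9.64% at E14.5 and 7.49 and 11.2% at E18.5. The stromal level of Nfix was 2.41, 18.3, 47.4, 372, 131, 169 and 200.3 CPM from E11.5 to P5. Its level was highest at E16.5, while its ratio to Wnt6-positive cells was 5.72, 7.73 and 6.37 at E14.5, E16.5 and E18.5. The stromal level of Maf was 42.2, 117, 226, 511, 279, 204 and 159.5 CPM, with ratios of 3.73, 3.38 and 4.05 at the same 3 ages. That of Ptn was 878, 1306, 1322, 2109, 1758, 1689 and 1275 CPM, with ratios of 13.98, 9.08 and 12.2. The levels of all 3 markers peaked at E16.5, but their within-library ratios did not all peak there.

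Some stromal genes had other courses. Tcf21 stood at 63.4 CPM at E14.5, 107 CPM at E16.5 and 561 CPM at E18.5, with within-library ratios of 8.02, 7.53 and 14.51. Eln stood at 74.6, 267 and 441 CPM, with ratios of 4.84, 6.50 and 9.34, and was past 2-fold between E14.5 and E18.5. Dcn was lowest at E11.5 with 87.6 CPM and highest at P5 with 2421 CPM. Pdgfra stood at 86.3, 284 and 103 CPM, a peak in level, with ratios of 6.43, 7.33 and 7.47. Nr2f1 was highest at E11.5 with 213 CPM and stood at 22.5 CPM at E16.5. Gata4 was lower in the stroma than in Wnt6-positive cells in each of the 7 libraries, 5.70-fold at E12.5, 2.02-fold at E14.5 and 1.42-fold at E16.5.

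**Figure D5:**
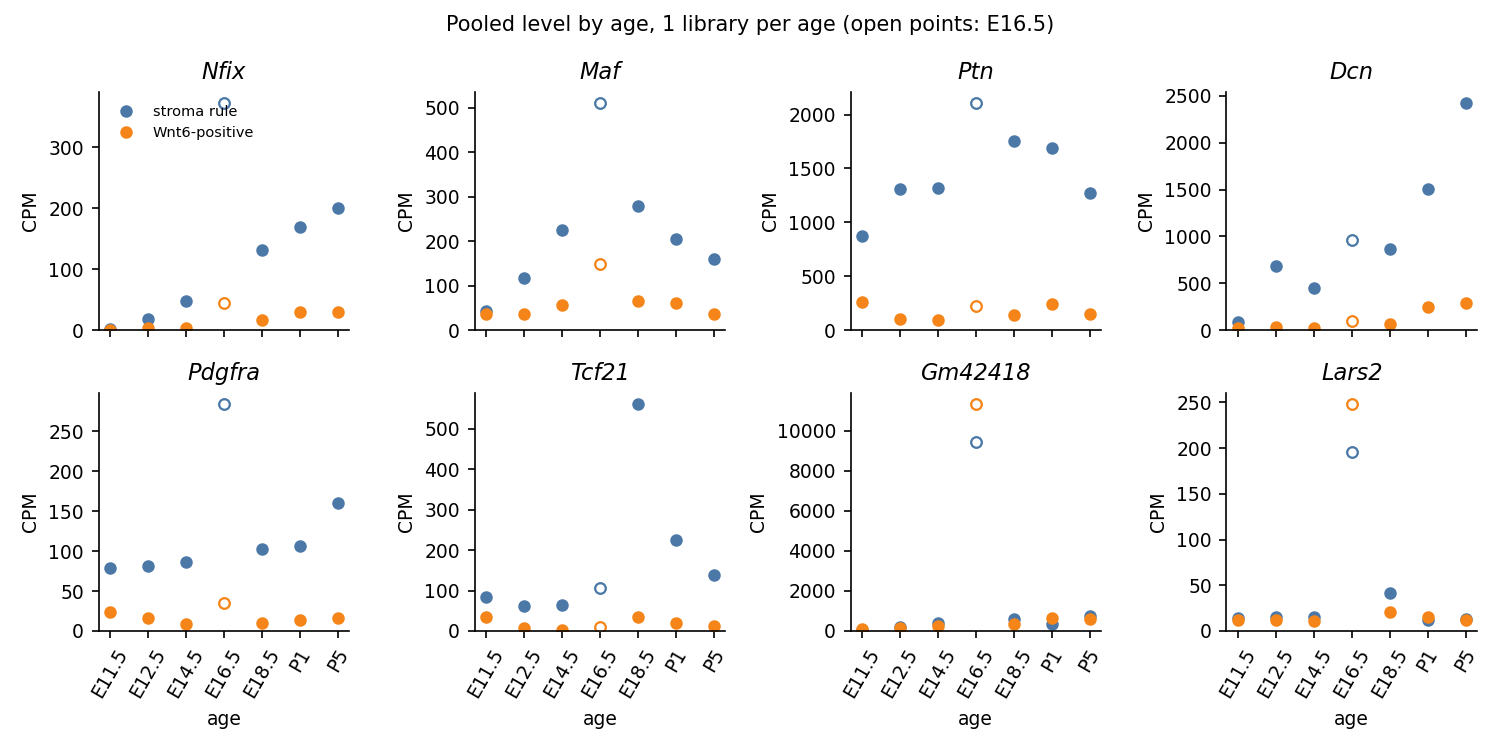
Pooled level (CPM, axes from 0) of 8 genes by age in cells that met the stromal gates and in Wnt6-positive cells, 1 library per age, with E16.5 as open points. Nfix, Maf, Ptn and Pdgfra peak at E16.5 in the stroma, Tcf21 at E18.5 and Dcn at P5, while Gm42418 and Lars2 are high at E16.5 in both cell types.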

How the data were processed

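The deposited files are matrices of counts, made by the authors with Cell Ranger 3.1.0 against the mm10 reference with default parameters (per the labels and the file headers), holding whole UMIs per gene and cell and no normalization. Gates, classes and lists were chosen with earlier results of these data known. Counts were summed per class and expressed as CPM. Genes with a mean of at least 10 CPM over both sides were compared, the gate genes left out. A gene counted as past 2-fold on levels with 5 CPM added, while printed folds are plain ratios with exact intervals. The code was tested on simulated counts. Cells were thinned to 2000 UMIs, leaving out shallower ones. Sub-clusters used 2194 variable genes, 10 principal components, 30 neighbours and Leiden resolution 0.6 (scanpy 1.11.5, leidenalg 0.10.2, Python 3.11.15). Doublets were not removed from the main set. Scrublet marked 437 cells, 18 of them stromal.

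The genes named are the markers and gate genes, the 15 highest and 10 lowest ratios, up to 5 genes past 2-fold with the highest stromal level and up to 3 others per list, the 8 highest and 8 lowest ratios between neighbouring ages, 6 leading genes per sub-cluster, and Gata4, Hox, Y-linked genes and Xist as checks. Some are not reported here. Col18a1, Thbs2, Lgr5, Rgs2, Gpx1, Actg2, Lmod1, the laminins, Fbln2, Thbs1, Ptch1, Gli1 and the list genes with no or hardly any UMI were added after their values were seen. Alternatives were those planned plus some added after the data were seen. Sequences are from RefSeq. Of 6 genes searched for upstream stretches, 4 had an entry.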

Additional observations from a re-analysis of the deposited data

How the results depend on the processing

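No paired analysis was possible because each age has 1 library. The number of stromal cells ran from 1846 with no UMI of another class tolerated to 2185 with a collagen gate of 5 UMIs, and was 2336 with 1 UMI of Wnt6 allowed. The counts of genes past 2-fold stayed within 1.5 times under every setting but a filter of 50 CPM and 20 CPM added, which test fewer genes or shrink ratios by construction. At 50 CPM, 211 genes were higher and 233 lower, and with 20 CPM added 294 and 369. For E16.5 against E14.5 these settings gave 414 and 189, and 510 and 183. For E18.5 against E16.5 they gave 110 and 293, and 116 and 258. At resolution 0.3 there were 5 sub-clusters. Of the log2 ratios of 260 genes over 18 alternatives, 4095 of 4680 values moved by less than 0.5 and 561 moved further. Against the mean of the other classes 0 of 6 tested mural genes were higher and 1 lower, beside 3.81 and 6.17% of all tested genes.

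Those that changed sign did so mostly with Wnt6-positive cells alone as reference, which leaves out the other classes. The log2 ratios were then 1.17 for Alas2, 0.78 for C1qa, 0.83 for C1qb, 0.70 for C1qc, 0.033 for Car2, 0.056 for Cldn5, 0.54 for Cx3cr1, 0.31 for Dusp6, 1.12 for Emcn, 0.15 for Esam, 0.68 for Fcer1g, 2.73 for Hba-a1, 2.66 for Hba-a2, 2.70 for Hbb-bs, 2.94 for Hbb-bt, 0.54 for Laptm5, 0.12 for Lrrn4, 0.79 for Lyz2, 0.73 for Rgs5, 1.10 for Slc4a1, 0.018 for Stfa1, 0.023 for Tie1 and 0.58 for Tyrobp. Without the mural class and the rest, the log2 ratio of Rgs5 was 0.44. Depth limits rare cells and genes under about 10 CPM, and 1 library per age leaves the spread between ovaries unknown.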

Other observations

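The gate on Wnt6 left out cells that met the collagen gate and every other gate. With 1 Wnt6 UMI and at least 10 collagen UMIs there were 260 cells, whose median collagen sum was 60.5 UMIs, with Ptn at 1606 CPM, Nfix at 291 CPM, Foxl2 at 129 CPM and Kitl at 384 CPM, against 36.7 CPM of Foxl2 and 100.9 CPM of Kitl in the stroma. With 2 or more Wnt6 UMIs there were 516, with a median collagen sum of 15, Ptn at 359 CPM, Foxl2 at 366 CPM and Kitl at 1178 CPM, above the Wnt6-positive class as a whole in both. Germ cells, which should lack Wnt6, held 18.2 CPM of Wnt6.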
